A study of Mus musculus with 14 samples.

Results

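The 10 genes described here encode the MHC class I pathway: H2-K1, H2-D1, B2m, Tap1, Tap2, Tapbp, Psmb8, Psmb9, Psmb10 and Nlrc5. They were chosen by name for their place in the pathway, with earlier results of these data known, from 53278 genes in each table. All 10 were present in the raw counts and the TPM of both experiments. All 10 passed the filter on low counts in both, among 15466 genes tested in the stimulation experiment and 17335 in the Blimp-1 experiment.

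The cells were group 2 innate lymphoid cells (ILC2s), sorted from the lungs of individual female mice as live, lineage-, CD90.2+, CD3- cells. In the stimulation experiment 8 B6 mice gave 4 unstimulated libraries and 4 IL-33 stimulated ones, which spent 24 h in culture with 20 ng/mL of the cytokine. The series' design gives both arms 24 h in complete RPMI, although it also speaks of the unstimulated cells as ex vivo. In the Blimp-1 experiment 3 Control (ControlIL7RaCre) and 3 Blimp-1-deficient (Blimp-1IL7RaCre) libraries came from age-matched mice, and both genotypes spent 72 h in culture with 2 cytokines, 20 ng/mL of IL-25 and 20 ng/mL of IL-33. The study's methods also list IL-2 for such cultures, which the labels do not. Blimp-1, encoded by Prdm1, is a transcriptional repressor. Its deletion was driven by Cre from the Il7r locus, which also acts in other ILCs, T cells, B cells and NK cells. All mice were over 6 weeks old.

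MHC class I molecules carry peptides from inside the cell to its surface, where CD8 T cells and receptors of NK cells read them. Proteasomes cut proteins into peptides, the transporter TAP moves the peptides into the endoplasmic reticulum, and tapasin helps to load them onto a heavy chain paired with beta-2 microglobulin. Interferons raise most genes of the pathway, through factors such as IRF1 and NLRC5, and exchange the 3 catalytic subunits of the standard proteasome for inducible ones.

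All 15 ILC2 markers were above 3 counts in every library. The 10 T cell markers summed to between 50.9 and 244 CPM, with the highest sums in unstimulated libraries. There Trbc2 reached 122 CPM, Cd3g 39.0 CPM, Trbc1 28.5 CPM and Lck 28.1 CPM. In the same libraries Cd3e reached only 9.48 CPM, Trac 6.70, Cd4 6.25, Cd3d 4.12, Cd8a 2.67 and Cd8b1 0.595 CPM. CPM are counts scaled to a TMM-normalised library size of 1000000, within each experiment. Library totals ran from 10470125 to 76448945 counts, so that 3 counts were worth between 0.031 and 0.731 CPM, far below every value of the 10 genes. Prdm1 was at 75.2, 92.8 and 74.0 CPM in Control replicates 1 to 3 and at 14.6, 11.5 and 11.4 CPM in Blimp-1-deficient replicates 1 to 3, a log2 fold change of -2.68 with an edgeR adjusted p of 0.00441. In Control replicate 2, 76.8% of the counts lay in 7 loci of ribosomal or repeat RNA, which left 3150795 counts for all other genes; the other 5 libraries of that experiment had at most 0.941% there. Col1a1, a collagen gene of stromal cells, reached 2171 CPM in the Control group and 267.9 CPM at most in the Blimp-1-deficient group. The high value belongs to Control replicate 2, where the stromal, endothelial and epithelial markers summed to 4090 CPM against 216.7 and 341.2 CPM in the other Control libraries. IL-33 stimulated replicate 3 had 10470125 counts, 4.12% of them in the same loci. The fold changes of the 10 genes are therefore given with and without these 2 libraries. No 2 libraries of a group agreed within counting noise.

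Of the 10 genes, 7 lie on mouse chromosome 17 in GRCm38 by the GENCODE annotation. Psmb9, Tap1, Psmb8 and Tap2 form a cluster of 34335 bases at chr17:34181987-34216321, in which the first exons of Psmb9 (minus strand) and Tap1 (plus strand) point away from each other and overlap by 212 bases. H2-K1 lies at chr17:33996017-34000347 on the minus strand, Tapbp at chr17:33915899-33929292 on the plus strand, and H2-D1 at chr17:35262730-35267499 on the plus strand. B2m is at chr2:122147686-122153083 on the plus strand, Psmb10 at chr8:105935735-105938444 on the minus strand and Nlrc5 at chr8:94434356-94527272 on the plus strand. The strand used in counting is not stated, so reads from overlapping genes on opposite strands cannot be told apart. Gm19412, antisense to Tapbp, overlaps 24.9% of its exon bases, Gm20496 overlaps 14.7% of Psmb8 and Gm15821 overlaps 14.1% of Tap2, and none of these 3 antisense genes exceeded 1.197 CPM in any library. Of all 75-base stretches of the H2-K1 and H2-D1 transcripts, 3.10% and 5.56% also occur in another gene, mainly other H2 genes, and none do for B2m.

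The promoters of the chromosome 17 genes and of B2m are shown because classical class I genes are known to be regulated through short motifs close to their starts. Each line gives 250 bases before and 50 bases after the RefSeq start in GRCm38.p6, 5′ to 3′ on the gene's strand. Capitals mark matches, on either strand, to 2 interferon-type motifs (GAAA repeated after any 2 bases, and GAAAGTG), the STAT-type motif TTCNNNGAA, the NF-kB consensus and the CCAAT box (ATTGG or its complement). A table entry was matched for 8 of the 10 genes; Tap2 and Nlrc5 had none.
H2-K1, chr17:34000298-34000597, minus strand: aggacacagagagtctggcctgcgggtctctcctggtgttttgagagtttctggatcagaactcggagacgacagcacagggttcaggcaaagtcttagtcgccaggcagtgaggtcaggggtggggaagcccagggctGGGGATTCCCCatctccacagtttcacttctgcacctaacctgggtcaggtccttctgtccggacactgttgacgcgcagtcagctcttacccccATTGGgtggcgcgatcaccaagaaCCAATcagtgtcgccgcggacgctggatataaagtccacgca
H2-D1, chr17:35262844-35263143, plus strand: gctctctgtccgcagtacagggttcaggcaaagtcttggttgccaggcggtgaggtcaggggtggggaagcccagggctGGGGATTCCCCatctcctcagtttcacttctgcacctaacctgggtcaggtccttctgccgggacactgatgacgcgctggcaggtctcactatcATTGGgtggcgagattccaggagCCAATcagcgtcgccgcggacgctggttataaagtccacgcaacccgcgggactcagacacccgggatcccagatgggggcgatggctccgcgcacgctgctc
B2m, chr2:122147437-122147736, plus strand: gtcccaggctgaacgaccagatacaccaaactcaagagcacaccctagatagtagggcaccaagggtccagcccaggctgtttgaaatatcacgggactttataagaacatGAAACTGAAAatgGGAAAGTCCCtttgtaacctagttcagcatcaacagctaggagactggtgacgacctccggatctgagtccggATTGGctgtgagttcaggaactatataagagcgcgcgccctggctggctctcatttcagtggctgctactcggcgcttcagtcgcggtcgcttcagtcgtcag
Tap1, chr17:34187306-34187605, plus strand: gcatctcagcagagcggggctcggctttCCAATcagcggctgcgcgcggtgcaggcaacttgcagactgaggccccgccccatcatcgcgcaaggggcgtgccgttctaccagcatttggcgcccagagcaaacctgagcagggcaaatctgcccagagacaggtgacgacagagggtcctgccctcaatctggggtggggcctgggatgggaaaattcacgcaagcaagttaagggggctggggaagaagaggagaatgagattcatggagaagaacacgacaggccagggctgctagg
Psmb9, chr17:34187281-34187580, minus strand: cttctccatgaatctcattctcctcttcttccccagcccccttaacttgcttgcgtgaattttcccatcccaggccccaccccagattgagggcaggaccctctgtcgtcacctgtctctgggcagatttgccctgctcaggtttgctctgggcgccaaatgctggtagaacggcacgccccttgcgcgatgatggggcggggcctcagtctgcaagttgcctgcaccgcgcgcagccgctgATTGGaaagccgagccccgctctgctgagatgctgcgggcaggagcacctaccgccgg
Psmb8, chr17:34197945-34198244, plus strand: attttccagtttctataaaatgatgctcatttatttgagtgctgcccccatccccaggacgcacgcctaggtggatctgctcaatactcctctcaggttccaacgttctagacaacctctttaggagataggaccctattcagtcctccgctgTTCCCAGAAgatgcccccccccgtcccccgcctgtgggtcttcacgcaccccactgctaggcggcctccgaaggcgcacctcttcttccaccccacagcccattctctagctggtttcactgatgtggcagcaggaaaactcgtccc
Tapbp, chr17:33919228-33919527, plus strand: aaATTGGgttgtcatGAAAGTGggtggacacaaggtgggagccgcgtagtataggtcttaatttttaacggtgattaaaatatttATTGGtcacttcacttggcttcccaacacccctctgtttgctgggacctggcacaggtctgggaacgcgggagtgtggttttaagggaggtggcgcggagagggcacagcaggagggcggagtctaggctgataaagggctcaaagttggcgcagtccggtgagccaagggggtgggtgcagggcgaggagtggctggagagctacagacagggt
The NF-kB consensus was found in 3 of the 8 promoters, those of H2-K1, H2-D1 and B2m, and in 4.51% of 32851 mouse promoters of the same length. The longest stretch common to the H2-K1 and H2-D1 windows is 47 bases long and holds the match, which reads in both at 2 overlapping positions. The CCAAT box was found in 6 of 8 promoters, against 37.4% of all. The GAAA repeat was found once, in B2m at position -139 from the start (GAAACTGAAA), against 3.44% of all promoters. GAAAGTG was found once, in Tapbp at position -235, against 4.81%, and TTCNNNGAA once, in Psmb8 at position -97 (TTCCCAGAA), against 8.3%. The interferon-type motifs were searched only as spelled above, so a variant element, for example in H2-K1 or H2-D1, would not be marked. The windows of Tap1 and Psmb9 are the same stretch read on opposite strands over 275 bases. For H2-D1, Psmb8, Psmb9 and Tapbp the RefSeq start differs from the outermost GENCODE start by 364, 474, 434 and 3579 bases. These matches describe letters in a window and were not tested for binding or effect.

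Levels were compared between genes per length, as TPM rescaled to their usual total after the 7 loci were left out. B2m, the light chain shared by all class I molecules, was highest in every group, with 10618 ± 1758 TPM (SD, n = 4) in unstimulated and 8104 ± 1241 TPM (SD, n = 4) in IL-33 stimulated ILC2s. The heavy chains H2-K1 and H2-D1 followed at 2967 ± 436 and 2926 ± 333 TPM in unstimulated ILC2s, and their ranges overlapped. Tapbp, the loading chaperone tapasin, was at 435 ± 79.1 TPM and Psmb8, an inducible proteasome subunit, at 314 ± 50.6 TPM. Psmb10 (171 ± 30.4 TPM), Tap1 (167 ± 32.1 TPM), Tap2 (124 ± 15.9 TPM) and Psmb9 (96.4 ± 18.9 TPM) came next, each overlapping its neighbour in this order. Nlrc5, the transactivator of class I genes, was lowest at 74.98 ± 17.4 TPM. Nlrc5 and Psmb9 held the last 2 places in every group. In Blimp-1-deficient ILC2s B2m was at 9177 ± 575, H2-D1 at 2943 ± 143 and H2-K1 at 2935 ± 198 TPM (SD, n = 3). In Control ILC2s the TPM of Control replicate 2 lay far below those of the other 2 libraries, also after rescaling: H2-K1 was at 1417 ± 781 TPM (SD, n = 3) with it and at 1867 ± 61.9 TPM (SD, n = 2) without it. The 2 experiments differ in culture time and cytokines and have tables of their own, so no level was tested between them.

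**Figure D1:**
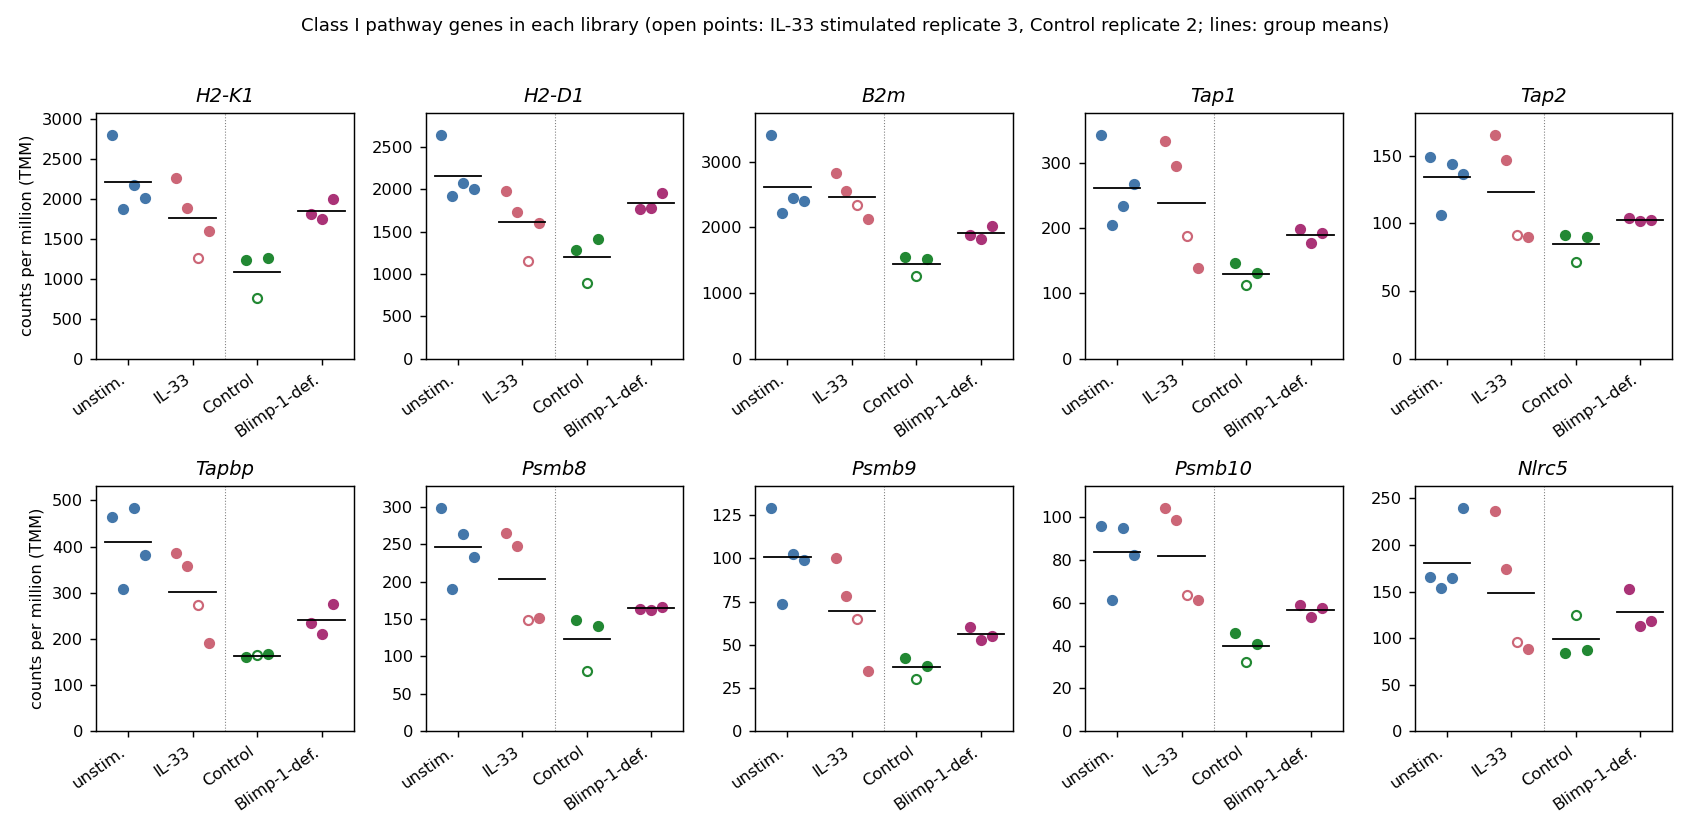
Each panel plots 1 gene; the vertical axis is TMM-normalised CPM from 0, and each point is a library, in the 4 groups on the horizontal axis, with a line at the group mean. Open points are IL-33 stimulated replicate 3 and Control replicate 2. The stimulated libraries overlap the unstimulated ones in every panel, and the Blimp-1-deficient libraries lie above the Control ones in all panels but that of Nlrc5.

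The first comparison asked how 24 h of IL-33 changed the pathway. None of the 10 genes passed the edgeR test at an adjusted p of 0.05 with all 8 libraries, while 16.2% of all genes tested were called higher and 16.1% lower, 32.3% in all. None had an unadjusted p under 0.05 either, against 43.9% of all genes. All 10 log2 fold changes lay below 0, from -0.54 for Psmb9 to -0.02 for Psmb10, with a median of -0.28 beside 0.06 over all genes tested. In CPM the 2 groups overlapped for each of the 10 genes, whereas 17% of all genes did not overlap with stimulated cells higher and 20.9% with stimulated cells lower. Without stimulated replicate 3 there were again 0 calls, against 27.5% of genes called higher and 29.7% called lower, 57.2% in all, and the median moved to -0.14 beside -0.05 over all genes. The groups again overlapped for all 10 genes, against 28.6% of genes that did not overlap with stimulated cells higher and 30.1% with stimulated cells lower. In that fit H2-D1 had an unadjusted p under 0.05 and the other 9 did not, against 61.9% of all genes. DESeq2 called none with all libraries, against 18.7% of genes called higher and 18.1% lower.

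H2-K1, a classical heavy chain, was at 2795, 1871, 2177 and 2013 CPM in unstimulated replicates 1 to 4 and at 2265, 1888, 1262 and 1601 CPM in stimulated replicates 1 to 4. Unstimulated replicate 1 was the highest and stimulated replicates 3 and 4 the lowest, with overlap between the groups. The log2 fold change was -0.34 (SE 0.20, edgeR adjusted p 0.229), with a 95% interval from -0.80 to 0.13, and -0.21 (adjusted p 0.255) without stimulated replicate 3.

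H2-D1, the other classical heavy chain measured, was at 2637, 1918, 2070 and 2005 CPM in unstimulated and at 1982, 1729, 1158 and 1603 CPM in stimulated replicates 1 to 4. Only stimulated replicate 1 reached into the unstimulated range. The log2 fold change was -0.41 (SE 0.18, edgeR adjusted p 0.115), and without stimulated replicate 3 it was -0.28 (SE 0.11, adjusted p 0.0560). The same gene was called lower on TPM, where limma gave -0.76 with an adjusted p of 0.0157, and there the median over all genes also lay at -0.25.

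B2m was at 3401, 2217, 2439 and 2401 CPM in unstimulated and at 2834, 2549, 2339 and 2132 CPM in stimulated replicates 1 to 4. The groups overlapped almost fully. Its log2 fold change was -0.09 (SE 0.16, edgeR adjusted p 0.706), with an interval from -0.46 to 0.29, and without stimulated replicate 3 it was -0.061. Within a library the TPM of H2-K1 were 28.0% ± 1.00 of those of B2m in unstimulated (SD, n = 4) and 23.3% ± 3.79 in stimulated ILC2s (SD, n = 4). In stimulated replicates 1 to 4 the values were 26.4%, 24.4%, 17.8% and 24.8%, with replicate 3 the lowest. H2-K1 and H2-D1 stayed near a ratio of 1 to each other, at 1.01 ± 0.040 and 1.07 ± 0.059. These ratios were not tested.

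For Tap1 and Tap2, which form the peptide transporter, stimulated replicates split into a high and a low pair. Tap1 was at 342, 205, 234 and 267 CPM in unstimulated and at 332, 295, 187 and 138 CPM in stimulated replicates 1 to 4. Tap2 was at 149, 106, 144 and 137 CPM in unstimulated and at 165, 147, 91.3 and 89.9 CPM in stimulated replicates 1 to 4. Stimulated replicates 1 and 2 lay at or above most unstimulated libraries and replicates 3 and 4 below all of them. The log2 fold changes were -0.14 (SE 0.29) for Tap1 and -0.12 (SE 0.22) for Tap2, with intervals that reach from -0.80 to 0.53 and from -0.63 to 0.39. Without stimulated replicate 3 they were -0.036 for Tap1 and 0.00079 for Tap2. Tapbp was at 464, 309, 483 and 382 CPM in unstimulated and at 386, 357, 274 and 191 CPM in stimulated replicates 1 to 4, a log2 fold change of -0.44 (SE 0.24, edgeR adjusted p 0.180) with all libraries and -0.40 without stimulated replicate 3.

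For the inducible proteasome subunits, too, stimulated replicates 3 and 4 were the lowest of their group. Psmb9 was at 129, 73.4, 102 and 99.2 CPM in unstimulated and at 100.4, 78.0, 65.1 and 35.04 CPM in stimulated replicates 1 to 4. Its log2 fold change of -0.54 (SE 0.31, edgeR adjusted p 0.208; -0.50 without stimulated replicate 3) was the lowest of the 10, and stimulated replicates 3 and 4 lay below every unstimulated library. Psmb8 was at 298, 190, 263 and 233 CPM in unstimulated and at 264, 248, 148 and 152 CPM in stimulated replicates 1 to 4, with a log2 fold change of -0.28 (SE 0.23) that was -0.15 without stimulated replicate 3. Psmb10 was at 95.6, 61.1, 94.9 and 82.4 CPM in unstimulated and at 104.1, 98.8, 63.7 and 61.3 CPM in stimulated replicates 1 to 4, with a log2 fold change of -0.02 (SE 0.22) that was 0.08 without stimulated replicate 3.

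Nlrc5 also varied widely among stimulated libraries. It was at 166, 154, 165 and 240 CPM in unstimulated and at 236, 174, 95.4 and 87.9 CPM in stimulated replicates 1 to 4. The log2 fold change was -0.29 (SE 0.33, edgeR adjusted p 0.521), with an interval from -1.04 to 0.47, and without stimulated replicate 3 it was -0.12. Over the 10 genes, stimulated replicate 1 was the highest of its group for 10, and the lowest was replicate 4 for 7 and replicate 3 for 3. Replicate 4 had 30831163 counts and 0.289% in the 7 loci, close to replicates 1 and 2. Irf1, an interferon-linked factor named here after its values were seen, was likewise lowest in replicate 4, at 275, 239, 144 and 73.2 CPM in stimulated replicates 1 to 4. Its part in the class I levels was not tested. The summed CPM of 10 T cell markers lay between 213 and 244 in unstimulated and between 58.0 and 85.1 in stimulated libraries, and those of 11 epithelial, endothelial and stromal markers between 504 and 828 and between 281 and 501. Their part in the comparison was not tested either. Among unstimulated libraries, replicate 2 was the lowest for all 10 genes and replicate 1 the highest for 8.

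**Figure D2:**
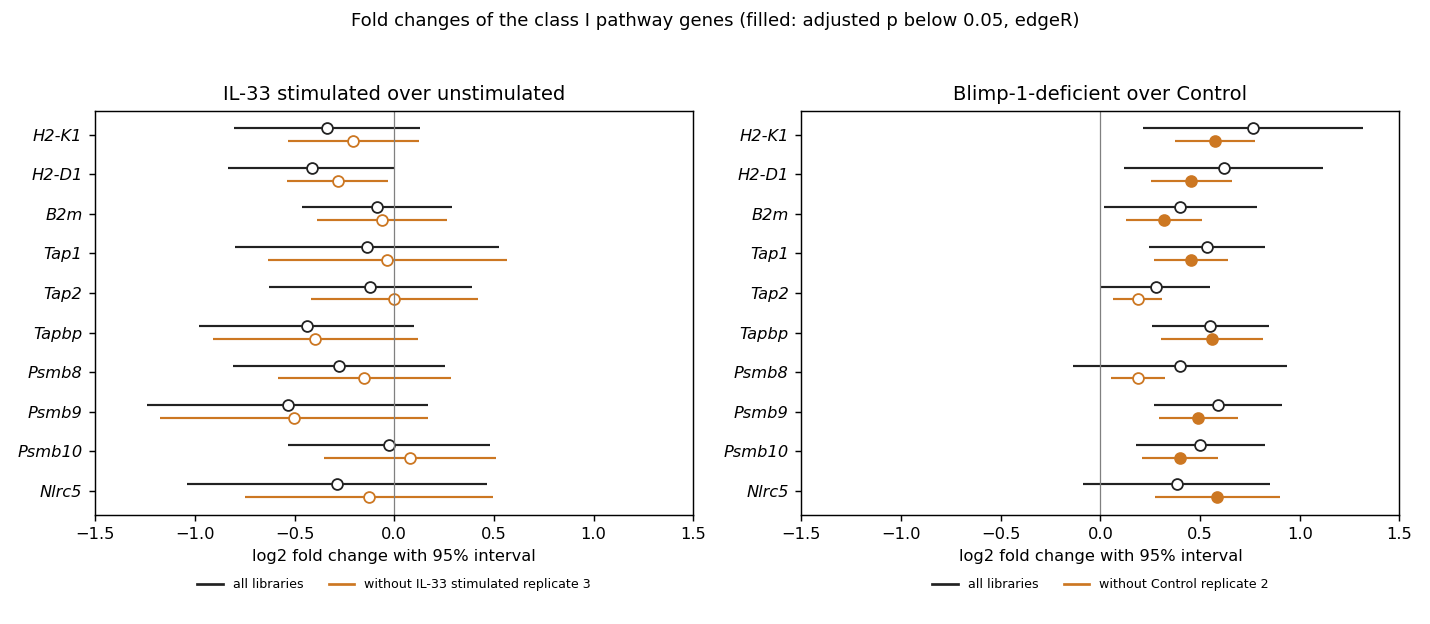
Points are edgeR log2 fold changes of the 10 genes and bars their 95% intervals, for IL-33 stimulated over unstimulated (left) and Blimp-1-deficient over Control (right), with all libraries and without the library named in the key; filled points passed an adjusted p of 0.05. All 10 points lie below 0 with all libraries on the left and none is filled, and 8 are filled on the right without Control replicate 2.

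Each inducible subunit takes the place of 1 constitutive subunit, Psmb8 that of Psmb5, Psmb9 that of Psmb6 and Psmb10 that of Psmb7, so the TPM ratio within a library gives their balance free of library scaling. Of the 3 constitutive subunits, Psmb7 rose after IL-33, from 100.1 ± 3.11 to 132 ± 9.02 CPM (SD, n = 4 each; log2 fold change 0.40, edgeR adjusted p 0.00224). Psmb5 and Psmb6 had log2 fold changes of 0.31 and 0.42 with all libraries, and both rose without stimulated replicate 3 (0.44 and 0.56). The log2 ratio of Psmb9 to Psmb6 was -0.85, -1.47, -0.97 and -0.99 in unstimulated and -1.53, -1.95, -1.59 and -3.23 in stimulated replicates 1 to 4, so that every stimulated library lay below every unstimulated one. The difference of means was -1.01 with an exact two-sided permutation p of 0.0286, the smallest that 4 against 4 allows, and an adjusted p of 0.0857 over the 3 ratios. Without stimulated replicate 4 this difference was -0.62 (adjusted p 0.129), and without stimulated replicate 3 it was -1.17 (adjusted p 0.0857). The adjusted p was 0.0429 without stimulated replicate 1, where the difference was -1.19, and 0.171 without unstimulated replicate 1, 3 or 4. The ratio of Psmb8 to Psmb5 differed by -0.59 (exact permutation p 0.0571, adjusted 0.0857) and by -0.71 without stimulated replicate 1 (adjusted p 0.0429), and that of Psmb10 to Psmb7 by -0.45 (exact permutation p 0.114), which was -0.30 without stimulated replicate 4 and -0.59 without stimulated replicate 1. Without unstimulated replicate 2 the latter ratio did not overlap between the groups. Of the 75-base stretches of Psmb5, 36.8% also occur in other genes, chiefly the pseudogene Gm3375, which reached 17.05 CPM in Control replicate 2 and 15.6 CPM in stimulated replicate 3.

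**Figure D3:**
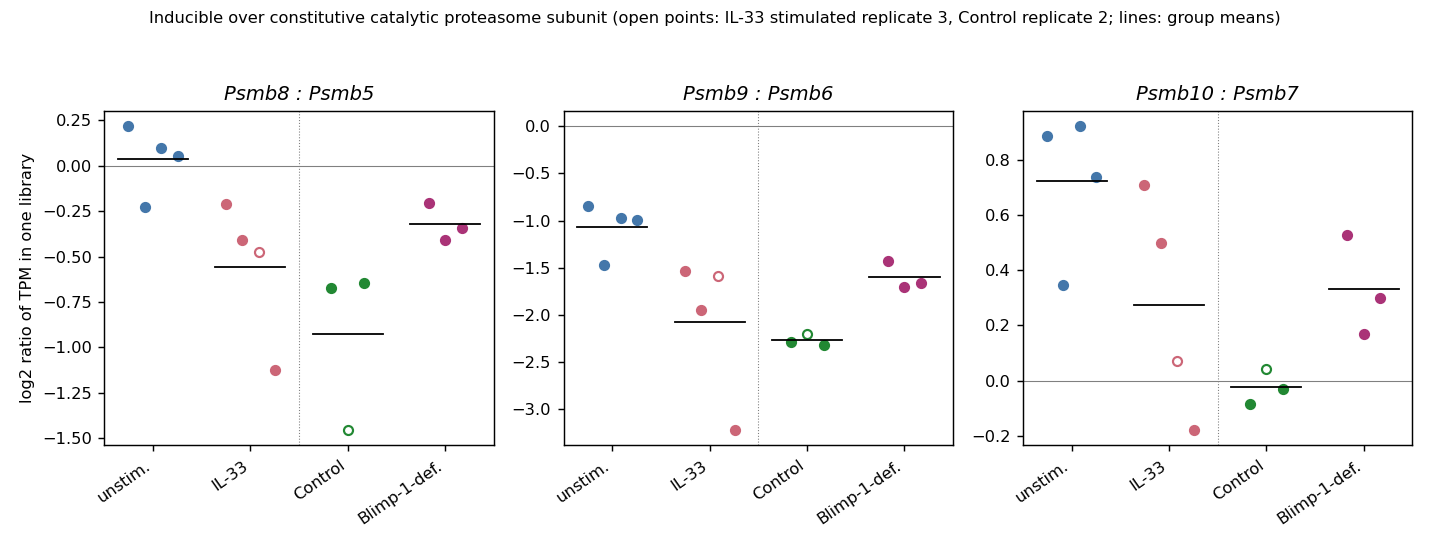
Each panel plots the log2 ratio of TPM of an inducible to its constitutive catalytic proteasome subunit in 1 library; points are libraries in the 4 groups, lines are group means, and open points are IL-33 stimulated replicate 3 and Control replicate 2. All 4 stimulated libraries lie below the unstimulated ones for Psmb9 to Psmb6, and the Blimp-1-deficient libraries lie above the Control ones in all 3 panels.

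Other parts of the antigen processing machinery differed from the 10 genes in their counts of calls after IL-33. Of the 11 other subunits of the 20S proteasome core, 8 rose (11 without stimulated replicate 3, where 27.5% of all genes were called higher), with a median log2 fold change of 0.55: Psma2 by 0.88 (edgeR adjusted p 0.000385), Psma5 by 0.85, Psma6 by 0.61 and Psmb2 by 0.57. Of 9 proteasome activators and assembly factors 5 rose, among them Pomp, which assembles the core, by 0.68 (adjusted p 0.00907). The 2 activator subunits Psme1 and Psme2, which interferon induces, had log2 fold changes of 0.11 and 0.31 and did not pass. Of 10 genes listed under peptide loading and trimming 7 rose. That list also holds general folding and translocation genes of the endoplasmic reticulum. The endoplasmic reticulum chaperones Calr and Hspa5 rose 3.11-fold and 2.69-fold, and Canx rose 1.73-fold, whereas Erap1, the trimming aminopeptidase, and Tapbpl, a relative of tapasin, were at -0.28 and -0.42 without passing. Of 6 cytosolic peptidases tested 4 rose, Lap3 by 1.21, Thop1 by 1.05, Npepps by 0.85 and Tpp2 by 0.46 on the log2 scale. These lists were written with earlier results known and are given by counts against the 16.2% of genes called higher.

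Among 13 class Ib and class I-like genes tested, 3 fell and 0 rose in edgeR, beside 16.1% and 16.2% of all genes, and 5 had an unadjusted p under 0.05, beside 43.9% of all genes. Mr1, which presents vitamin metabolites to MAIT cells, fell from a mean of 14.8 to one of 6.44 CPM (n = 4 each; log2 fold change -1.19, edgeR adjusted p 0.00232). H2-T10 fell by 0.97 and H2-Q6 by 0.81 on the log2 scale; 35.985% and 21.1% of their 75-base stretches also occur in other genes, so their values are uncertain. Without stimulated replicate 3, 5 fell and 2 rose, beside 29.7% and 27.5% of all genes, one of the latter 2 being H2-T23, the mouse Qa-1 molecule, by 0.54. Of 17 transcription factors of class I genes, 2 fell and 0 rose with all libraries, beside 16.1% and 16.2% of all genes. These 2 were Nfya and Creb1, which fell by 0.44 and 0.38. Without stimulated replicate 3, 5 of the 17 fell and 2 rose, beside 29.7% and 27.5% of all genes. With all libraries, among interferon receptors and their kinases, Ifngr1 fell by 1.66 (edgeR adjusted p 0.000159) and Jak2 rose by 1.54 (adjusted p 3.06e-05). Ifng was low in all libraries, at 0.97, 0.17, 0.42 and 0.57 CPM in unstimulated and at 5.19, 11.7, 6.30 and 1.24 CPM in stimulated replicates 1 to 4, and it rose by 3.51 (adjusted p 0.00924). Of 14 genes listed as class I receptors or their relatives, 6 were tested. Among these 6, 1 rose, beside 16.2% of all genes: Lilrb4a, an inhibitory receptor, by 1.12. Its binding to class I was not examined. The 5 class II markers summed to between 14.2 and 39.5 CPM in unstimulated and between 52.8 and 72.3 CPM in stimulated libraries; their part in these results was not tested.

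The second comparison asked how Blimp-1 deficiency changed the pathway in activated ILC2s. With all 6 libraries none of the 10 genes passed the edgeR test, in which 0.45% of genes were called higher and 0.306% lower. All 10 log2 fold changes lay above 0, from 0.28 for Tap2 to 0.77 for H2-K1, with a median of 0.52 beside -0.02 over all genes, and 8 had an unadjusted p under 0.05, against 11.9% of all genes. For 9 genes, all but Nlrc5, every Blimp-1-deficient library lay above every Control library, which held for 11.8% of all genes. DESeq2 called 7 of the 10 higher with the same 6 libraries, against 2.96% of genes called higher and 2.9% lower. Without Control replicate 2, edgeR called 8 of the 10 higher, all but Tap2 and Psmb8, against 8.25% of all genes called higher and 5.72% called lower, and the median was 0.46. In that fit all 10 had an unadjusted p under 0.05, against 31.2% of all genes, and 10 of 10 did not overlap, all with the deficient libraries higher, against 24.3% of all genes in that direction and 26.1% in the other. It rests on 2 Control libraries. In the same libraries the 11 epithelial, endothelial and stromal markers summed to 216.7 and 341.2 CPM in Control replicates 1 and 3 and to 494.7, 552.3 and 741.3 CPM in Blimp-1-deficient replicates 1 to 3, so they too were higher in the deficient group. Pecam1, an endothelial marker, was at most 80.8 CPM in any Control library and between 160.0 and 174.7 CPM in the deficient ones. Cdh5, also an endothelial marker, overlapped, at 17.8 to 32.7 CPM in Control and 24.5 to 38.2 CPM in the deficient libraries. Epcam, an epithelial marker, averaged 5.75 CPM in Control and 6.35 CPM in the deficient group. The part of any cells carrying these markers in the class I values was not tested.

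H2-K1 was at 1239, 763 and 1260 CPM in Control and at 1806, 1750 and 1994 CPM in Blimp-1-deficient replicates 1 to 3. Control replicate 2 was the lowest. The log2 fold change was 0.77 (SE 0.23, edgeR adjusted p 0.241) with it and 0.58 (SE 0.09, adjusted p 0.00719) without it, when H2-K1 rose 1.49-fold. H2-D1 was at 1282, 892 and 1410 CPM in Control and at 1764, 1778 and 1961 CPM in Blimp-1-deficient replicates 1 to 3. For H2-D1 the log2 fold change was 0.62 (SE 0.21, edgeR adjusted p 0.307) with all libraries and 0.46 (SE 0.09, adjusted p 0.0169) without Control replicate 2.

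B2m was at 1554, 1259 and 1523 CPM in Control and at 1882, 1815 and 2023 CPM in Blimp-1-deficient replicates 1 to 3. The groups did not overlap, and the log2 fold change was 0.40 (SE 0.16, edgeR adjusted p 0.393) with all libraries and 0.32 (SE 0.08, adjusted p 0.0447) without Control replicate 2. The TPM of H2-K1 were 24.5% ± 3.97 of those of B2m in Control and 32.0% ± 0.457 in Blimp-1-deficient ILC2s (SD, n = 3 each), with values of 20.0% to 27.3% in Control libraries.

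Tap1 was at 146, 113 and 132 CPM in Control and at 198, 177 and 192 CPM in Blimp-1-deficient replicates 1 to 3. The log2 fold change of Tap1 was 0.53 (SE 0.12, edgeR adjusted p 0.134) with all libraries, and it rose by 0.46 without Control replicate 2 (SE 0.08, adjusted p 0.0125). Tap2 was at 91.4, 71.6 and 90.3 CPM in Control and at 104.1, 101.9 and 102.4 CPM in Blimp-1-deficient replicates 1 to 3, a difference of 0.28 (SE 0.11, adjusted p 0.408) with and 0.19 (SE 0.05, adjusted p 0.0567) without that library. Whether Tap1 and Tap2 differ in their change was not tested. Tapbp hardly varied among the Control libraries, at 161, 164 and 166 CPM, against 235, 210 and 275 CPM in Blimp-1-deficient replicates 1 to 3. Its log2 fold change was 0.55 (SE 0.12, adjusted p 0.128) with and 0.56 (SE 0.11, adjusted p 0.0179) without Control replicate 2.

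Psmb9 was at 42.3, 30.4 and 38.0 CPM in Control and at 60.1, 52.7 and 55.3 CPM in Blimp-1-deficient replicates 1 to 3. The log2 fold change of Psmb9 was 0.59 (SE 0.13, edgeR adjusted p 0.136) with all libraries, and it rose by 0.49 without Control replicate 2 (SE 0.08, adjusted p 0.0120). Psmb10 was at 45.7, 32.4 and 40.6 CPM in Control and at 59.1, 53.2 and 57.3 CPM in Blimp-1-deficient replicates 1 to 3, a log2 fold change of 0.50 (SE 0.13, adjusted p 0.206) with all libraries, and rose by 0.40 (SE 0.08, adjusted p 0.0203) without Control replicate 2. Psmb8 was at 149, 81.1 and 141 CPM in Control and at 164, 162 and 166 CPM in Blimp-1-deficient replicates 1 to 3. The Control replicate 2 value set most of its difference, which was 0.40 with and 0.19 without that library (adjusted p 0.0708). The constitutive subunits Psmb5, Psmb6 and Psmb7 were at -0.15, -0.22 and 0.01 without Control replicate 2, and none passed. The log2 ratio of Psmb9 to Psmb6 was -2.29, -2.21 and -2.32 in Control and -1.43, -1.70 and -1.66 in Blimp-1-deficient replicates 1 to 3, a difference of 0.68. The ratios of Psmb8 to Psmb5 and of Psmb10 to Psmb7 differed by 0.61 and 0.36. No ratio overlapped between the groups, and each exact two-sided permutation p was 0.1, the smallest that 3 against 3 allows. With 1 added to each TPM, Psmb9 to Psmb6 did overlap, with a difference of 0.42 and an exact permutation p of 0.3. Without Control replicate 2 the differences of Psmb8 to Psmb5, Psmb9 to Psmb6 and Psmb10 to Psmb7 were 0.34, 0.71 and 0.39.

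Nlrc5 was the 1 gene of the 10 for which Control replicate 2 stood highest in its group. It was at 84.5, 124.5 and 87.2 CPM in Control and at 153, 113 and 118 CPM in Blimp-1-deficient replicates 1 to 3. Its log2 fold change was 0.38 (SE 0.19, edgeR adjusted p 0.526) with and 0.59 (SE 0.13, adjusted p 0.0309) without that library.

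Other genes of the pathway were described in the same way in the Blimp-1 experiment. With all 6 libraries edgeR called 1 of 14 class Ib genes and 1 of 17 transcription factors higher, beside 0.45% of all genes, and 0 genes of the other lists. These were H2-Q7, a class Ib gene, higher by 0.78 (edgeR adjusted p 0.0387), and Irf9, a factor of type I interferon signalling, higher by 0.88 (adjusted p 0.0398). Without Control replicate 2, 6 of 14 class Ib genes rose, beside 8.25% of all genes, led by H2-Q6 (0.98), H2-Q4 (0.96), H2-Q7 (0.75) and H2-T10 (0.51); of their 75-base stretches 21.1%, 20.7%, 16.955% and 35.985% occur in other genes. H2-Q4 was at 61.8, 33.1 and 64.1 CPM in Control and at 135, 108 and 122 CPM in Blimp-1-deficient replicates 1 to 3. Of 17 transcription factors 5 rose and 1 fell in that fit, beside 8.25% and 5.72% of all genes, among them Irf7 at 1.90, Stat2 at 1.096 and Irf9 at 0.87. Of 7 interferon receptors and JAK kinases 5 rose in that fit: Ifngr1 by 0.62 (adjusted p 0.00950), Jak2 by 0.53, Ifngr2 by 0.53 and Ifnar2 by 0.41 were the largest. With all 6 libraries 0 of these 7 passed, beside 0.45% of all genes called higher, and 5 had an unadjusted p under 0.05, beside 11.9% of all genes. Ifng was at 0.37, 0 and 0.14 CPM in Control and at 1.124, 1.19 and 0.76 CPM in Blimp-1-deficient replicates 1 to 3. Its log2 fold change without Control replicate 2 was 2.01 (adjusted p 0.0310), at a mean of 0.715 CPM, and with all 6 libraries it was 2.19 (adjusted p 0.238).

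The constitutive machinery is given against 8.25% of all genes called higher and 5.72% called lower without Control replicate 2. Of the 20S core 1 of 11 subunits, Psma3, fell by 0.31 without Control replicate 2 (edgeR adjusted p 0.0498), and none lay above 0; 6 of the 11 had an unadjusted p under 0.05, beside 31.2% of all genes, and 8 of the 11 did not overlap, beside 24.3% of all genes with the deficient libraries higher and 26.1% with them lower. With all 6 libraries 0 core subunits passed and 0 had an unadjusted p under 0.05. Of the 10 genes for peptide loading and trimming 0 passed in edgeR and 3 had an unadjusted p under 0.05 without that library; Calr and Pdia3, chaperones of the loading complex, were at -0.03 and -0.02. Among 9 proteasome activators and assembly factors Psme4 fell by 0.34 (adjusted p 0.0129) and 5 had an unadjusted p under 0.05. Among 6 peptidases Blmh fell by 0.26, Npepps rose by 0.22, and all 6 had an unadjusted p under 0.05. Of the 14 genes listed as class I receptors or their relatives 10 were tested, and 2 fell without Control replicate 2. These were Klra7 and Klrd1, both receptors of NK cells with means of 0.416 and 1.33 CPM, named after their values were seen. The 8 NK cell and ILC1 markers summed to 145, 76.5 and 95.4 CPM in Control and to 73.9, 19.6 and 20.1 CPM in Blimp-1-deficient replicates 1 to 3. Gzmb, a granzyme, made up most of these sums, with a mean of 96.4 CPM in Control and 32.0 CPM in the deficient group. The means of Eomes (2.28 and 0.363 CPM), Gzma (1.99 and 0.231 CPM) and Klre1 (0.840 and 0.193 CPM) were also lower in the deficient group. Those of Prf1 (2.83 and 2.84 CPM), Tbx21 (0.907 and 1.13 CPM), Klrb1c (0.127 and 0.153 CPM) and Ncr1 (0.115 and 0.957 CPM) were not. Ncr1 ran from 0.245 to 2.07 CPM among the deficient libraries. The 5 class II markers summed to 15.1, 29.5 and 15.0 CPM in Control and to 74.8, 56.3 and 24.5 CPM in Blimp-1-deficient replicates 1 to 3; the part of either in the class I values was not tested. In bulk RNA a change in the number of cells of a type and a change in RNA per cell cannot be told apart.

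**Figure D4:**
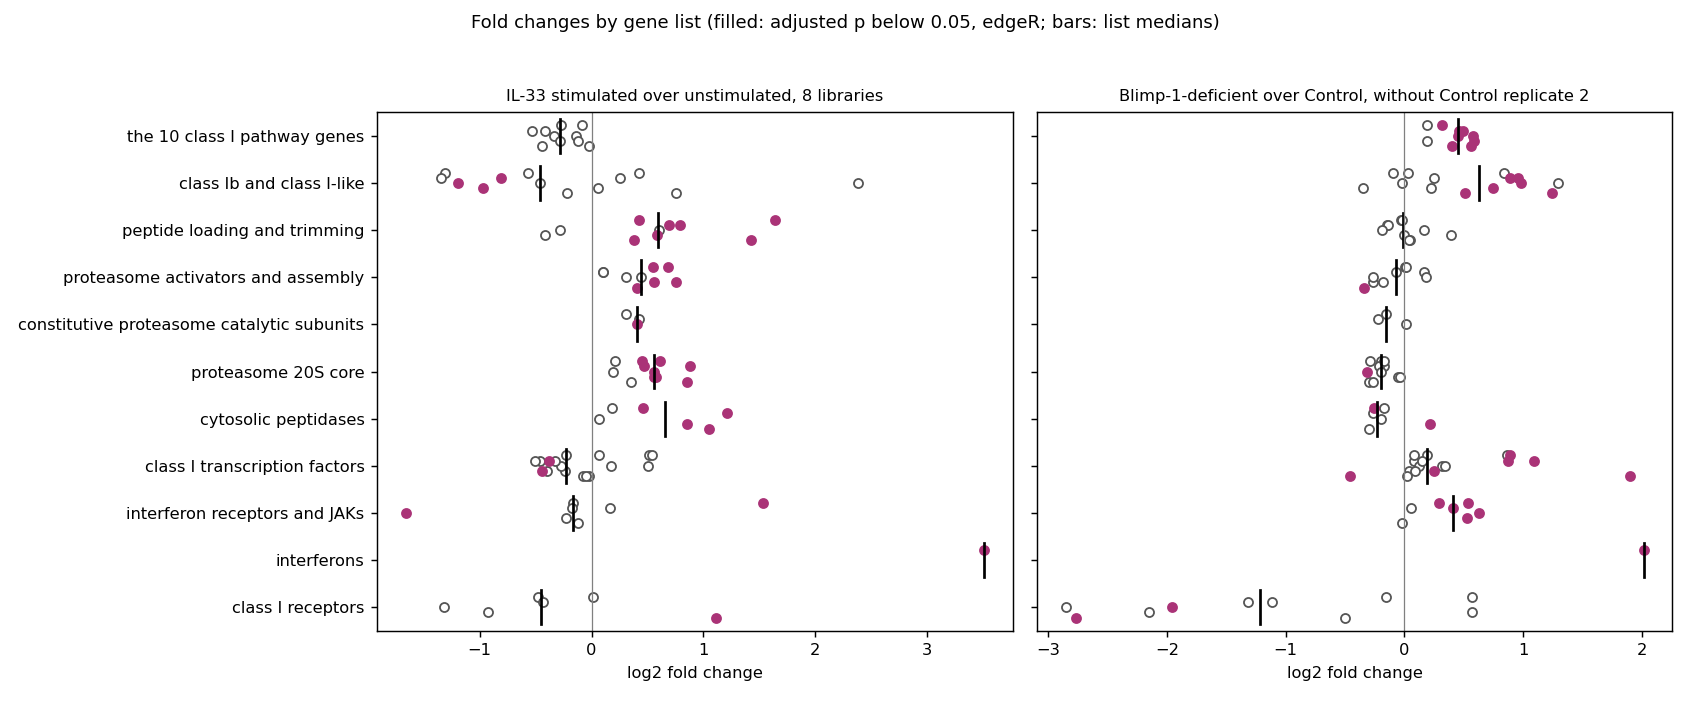
Each point is the edgeR log2 fold change of 1 gene, grouped by list on the vertical axis, for IL-33 stimulated over unstimulated with all 8 libraries (left) and Blimp-1-deficient over Control without Control replicate 2 (right). Filled points passed an adjusted p of 0.05 and bars are list medians. On the left the 10 class I genes lie just below 0 (median -0.28) while the 20S core lies above (median 0.55), and on the right the 10 genes lie above 0 (median 0.46) and the 20S core below (median -0.20).

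Across the 8 libraries of the stimulation experiment, which share 2 treatment groups and a common scaling, the log2 CPM of some of the 10 genes ran together. The Pearson r was 0.97 for H2-K1 with H2-D1, 0.96 for Tap2 with Psmb8 and 0.96 for Psmb9 with Tapbp, and 0.47 for B2m with Nlrc5, the lowest pair. Among 10689 other genes with a mean of at least 5 CPM, those most like H2-K1 were Npc2 (0.97), Tmem229b (0.95), Dusp6 (0.95), Tmco4 (0.94) and Enox2 (0.93). Those most like Nlrc5 were Stk38l (0.95), Lpp (0.93), Gm8995 (0.93), Parp10 (0.92) and Idnk (0.91). With 8 libraries such values describe this set of libraries and carry no test.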

How the data were processed

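Raw counts and TPM of 14 bulk RNA-seq libraries were used, 8 from the stimulation experiment and 6 from the Blimp-1 experiment, made by SMART-seq v4 and Nextera XT and read as 75-base pairs. By the study's methods, adapters were removed with cutadapt, and the authors mapped the reads to GRCm38 with HISAT2 and made counts per gene with Subread; the submitters' processing notes name Bowtie2, mm10, Subread and DESeq2. The deposited counts are whole numbers without normalization. The deposited TPM are length-scaled by the authors and have the same sum in every library. Which annotation and which strand setting were used for counting is not given in the sources used here. The 2 experiments were normalised separately.

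Counts were fitted with edgeR 4.0.16 in R 4.3.3 (TMM, filterByExpr, quasi-likelihood test, two-sided, no covariate), apart for each experiment, with Benjamini-Hochberg adjustment over all genes tested and a threshold of 0.05. Intervals are the fitted log2 fold change with its SE and the test's degrees of freedom. CPM are counts over TMM-scaled totals. The rescaling of TPM without the 7 loci was chosen after seeing the data. Ratios of TPM were tested by exact permutation over libraries, also with 1 added to each TPM. Libraries come from separate mice. Totals were 21939818 to 32849428 counts in the stimulation experiment, apart from IL-33 stimulated replicate 3 (10470125), and 60715362 to 76448945 in the Blimp-1 experiment, apart from Control replicate 2 (13570188).

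The 10 genes, the other gene lists and the 7 loci were chosen with earlier results of these data known. All 10 genes are named; of each other list at most 4 genes are named per comparison, the largest changes among genes that passed the test, did not overlap between groups and averaged 5 CPM or more, or else the 2 of highest mean. Irf1, Psme1, Psme2, Erap1, Tapbpl, H2-T23, Klra7 and Klrd1 were named after their values were seen. Some genes of the lists are not reported here. Alternatives were DESeq2 1.42.0, DESeq2 size factors, library size alone, other filters on low counts, limma 3.58.1 on log2 TPM with a pseudocount of 1 or 0.1 and a mean TPM of at least 1, voom with sample weights, the replicate number as a block, and each library left out. The test was also run on simulated data, and the outcome is not reported here. Promoters are from RefSeq (GRCm38.p6) and gene positions from GENCODE (GRCm38), which held 93.3% of the symbols in the tables.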

Additional observations from a re-analysis of the deposited data

Results flagged for a closer look

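Nlrc5 in unstimulated replicate 4 was at 239.5 CPM, far from the other 3 unstimulated libraries, which lay between 154 and 166 CPM. Its gap to the nearest library over the range of the group was 0.861, beyond the limit of Dixon's test for 4 samples. In all, 26 sets of 4 libraries were examined, and chance alone marks about 1 in 20.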

How the results depend on the processing

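In the IL-33 comparison no setting called any of the 10 genes higher. The count called lower was 0 with all libraries in edgeR and also 0 with each library left out in turn; it was 1 with library size alone, 1 with voom sample weights, and 3 with limma on log2 TPM at either pseudocount. On the TPM scale the median of all genes was -0.25 and -0.29, and 1032 and 1027 genes were called higher and 4655 and 4546 lower, so a fold change there is relative to that shift. With library size alone the share of higher calls also changed, to 1805 higher against 3691 lower, from 2508 against 2484. Voom weights gave 4556 genes higher and 4877 lower and put 4 genes above 0: B2m at 0.032, Tap1 at 0.11, Tap2 at 0.10 and Psmb10 at 0.21. With each library left out, the IL-33 log2 fold change of B2m ran from -0.16 to 0.13, the IL-33 log2 fold change of Tap1 from -0.34 to 0.0775, the IL-33 log2 fold change of Tap2 from -0.29 to 0.00568, and the IL-33 log2 fold change of Psmb10 from -0.16 to 0.10. The counts of all genes ran from 1852 to 4328 higher and from 1820 to 4666 lower, highest without stimulated replicate 3. The ratio differences ran from -0.71 to -0.40 for Psmb8 to Psmb5, from -1.19 to -0.62 for Psmb9 to Psmb6 and from -0.59 to -0.30 for Psmb10 to Psmb7, lowest without stimulated replicate 1 and highest without replicate 4; the cause was not tested.

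In the Blimp-1 comparison all 10 genes stayed above 0 in all 17 alternatives for each. The number called higher ran from 0 to 8 with 1 library left out, 8 only without Control replicate 2; it was 7 with DESeq2 and 8 with voom weights. Over all genes these gave 545 higher and 534 lower, and 1295 higher and 926 lower. With a mean count of at least 50 the counts were 149 and 107; with limma on TPM they were 1 and 1 at a pseudocount of 1 and 1 and 0 at 0.1, where the median of all genes lay at 1.28 and 1.69; leaving out libraries gave 0 to 1483 higher and 0 to 1027 lower. With library size alone the median of all genes lay at 0.45. Chosen after seeing the data, library size alone without the 7 loci called 128 genes higher and 60 lower with 0 of the 10 genes among them, and DESeq2 without Control replicate 2 called 10 of the 10, among 1932 genes higher and 1630 lower. With 1 added to each TPM the difference in Psmb9 to Psmb6 was 0.42 in place of 0.68. The cause of these differences was not tested.

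The replicate numbers come from separate mice, and the deviations of same-numbered libraries did not correlate throughout (r from -0.145 to 0.282 for IL-33 and from -0.134 to 0.122 for Blimp-1). Not every library correlated best with its own number. With the replicate block the ratio of Psmb9 to Psmb6 had an adjusted p of 0.1875 after IL-33 (the smallest exact p that 4 pairs allow is 0.125, so it could not pass), 0 of the 10 genes were called in either comparison, and in the Blimp-1 experiment 0 genes were called higher and 0 lower. Precision is limited by 3 or 4 libraries a group, and by 2 Control libraries where replicate 2 is left out. The lowest value of the 10 genes in any library was 30.4 CPM, of Psmb9 in Control replicate 2.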
